A study of Homo sapiens with 4 samples.

Results

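The genes described here encode 8 secreted or membrane-bound metalloproteinases (MMP1, MMP2, MMP3, MMP9, MMP10, MMP14, ADAMTS1 and PAPPA) and 2 tissue inhibitors of metalloproteinases (TIMP1 and TIMP3). They were taken by symbol from the deposited expression tables, in which all 10 were found among 25317 gene symbols. Messenger RNA was measured by RNA sequencing in MCF10A, an established cell line from non-tumour human breast epithelium. The cells received a lentivirus (pHIV-ZsGreen) that carried no insert (empty vector), Zeb1, Snail or Ovol2, and the fluorescent cells were sorted 6 days later. Zeb1 and Snail are repressors that push epithelial cells towards a mesenchymal state (epithelial-to-mesenchymal transition, EMT), and Ovol2 acts in the opposite direction. All groups grew in the same medium with 5% horse serum, 10 ng/mL epidermal growth factor, 100 ng/mL cholera toxin and 0.023 IU/mL insulin. Each group was 1 library of a sorted population. The sources used here do not give the promoter that drove each insert or the species of its sequence.

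Matrix metalloproteinases (MMPs) are zinc enzymes that cut collagens, laminins, fibronectin and other proteins around the cell. Most are made as inactive precursors and are held in check by the TIMPs, which block the zinc site. In breast tissue they take part in branching, in involution and in tumour invasion, and both the epithelium and the stroma can supply them. ADAMTS1 belongs to a related family that cuts proteoglycans such as versican. PAPPA is a pappalysin that releases insulin-like growth factors by cutting their binding protein IGFBP4.

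The stretch that joins the 8 proteases is the zinc site, whose coding bases are shown because it defines the family and because it shows how alike MMP3 and MMP10 are. The bases come from GENCODE release 29 transcripts (GRCh38), are written on the coding strand, and carry the 3 zinc-binding histidine codons in capitals.
MMP1: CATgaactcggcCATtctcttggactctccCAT
MMP3: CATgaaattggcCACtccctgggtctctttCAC
MMP10: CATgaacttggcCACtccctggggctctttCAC
MMP2: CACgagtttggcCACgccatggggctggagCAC
MMP9: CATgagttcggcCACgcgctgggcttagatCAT
MMP14: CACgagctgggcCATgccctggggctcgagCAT
ADAMTS1: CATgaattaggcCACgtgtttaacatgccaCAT
PAPPA: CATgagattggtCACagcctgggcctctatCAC
Each reading frame held 1 such stretch of 33 bases. It lay in exon 5 of 10 in MMP1 (chr11:102795549-102795581, minus strand), MMP3 (chr11:102840535-102840567, minus) and MMP10 (chr11:102776718-102776750, minus), and in exon 5 of 10 in MMP14 (chr14:22843283-22843315, plus). In the gelatinases it lay in exon 8 of 13 (MMP2, chr16:55491827-55491859, plus, and MMP9, chr20:46012453-46012485, plus). PAPPA carried it in exon 4 of 22 (chr9:116211698-116211730, plus), and in ADAMTS1 it was split between exons 3 and 4 (chr21:26841143-26841867, minus). MMP3 and MMP10 differed at 2 of the 33 bases, MMP1 and MMP10 at 8, and ADAMTS1 and PAPPA at 17. Along the whole transcripts, MMP3 and MMP10 shared 59 of the 1967 words of 50 bases in MMP3, so a small part of their reads could be split between them. No other pair of the 10 genes shared such a word.

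Promoter sequence from RefSeq (GRCh38.p14) was at hand for MMP10, MMP14, PAPPA, TIMP1 and TIMP3. The 250 bases before the annotated start were searched on both strands for 4 motifs. These were CAGGTG, the E-box form that Zeb1 and Snail bind, CCGTTA, the core bound by OVO factors, TATAAA and TGANTCA. The last, in which N is any base, is a loose form of the AP-1 site, so a match need not be an AP-1 site. Of 35116 promoters of that length, 17.5% held CAGGTG, 6.57% TGANTCA, 2.45% CCGTTA and 10.7% TATAAA. The windows of MMP10, PAPPA and TIMP3 are shown because they held matches, which did not overlap and are in capitals.
MMP10 (chr11:102780629-102780878, minus): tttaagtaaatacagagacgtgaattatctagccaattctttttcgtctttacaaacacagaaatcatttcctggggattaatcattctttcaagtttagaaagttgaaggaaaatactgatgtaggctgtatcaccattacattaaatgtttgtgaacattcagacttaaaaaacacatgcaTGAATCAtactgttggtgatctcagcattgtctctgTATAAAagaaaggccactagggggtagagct
PAPPA (chr9:116153541-116153790, plus): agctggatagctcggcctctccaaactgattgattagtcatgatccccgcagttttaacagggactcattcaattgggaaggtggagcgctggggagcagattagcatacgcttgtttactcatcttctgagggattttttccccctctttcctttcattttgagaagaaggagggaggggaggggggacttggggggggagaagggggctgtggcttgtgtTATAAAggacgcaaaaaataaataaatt
TIMP3 (chr22:32801455-32801704, plus): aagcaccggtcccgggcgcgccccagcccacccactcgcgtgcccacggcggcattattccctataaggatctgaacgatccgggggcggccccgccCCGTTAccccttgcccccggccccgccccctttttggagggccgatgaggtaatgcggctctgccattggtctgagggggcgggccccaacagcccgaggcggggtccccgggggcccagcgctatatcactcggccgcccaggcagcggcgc
MMP10 held a TGANTCA match (TGAATCA) 67 bases and a TATAAA 31 bases before the start. PAPPA held a TATAAA 28 bases before it, and TIMP3 a CCGTTA 153 bases before it. CAGGTG was in none of the 5 windows, and the MMP14 and TIMP1 windows held none of the 4 motifs. The GC content was 34.4% for MMP10, 48.0% for PAPPA, 56.8% for MMP14, 64.8% for TIMP1 and 72.4% for TIMP3, against a median of 58% over all promoters. A match is a run of letters, and binding was not measured.

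With 1 library per group there was no spread between replicates and no test of a condition. Levels are in FPKM, fragments per unit of transcript length and of sequencing depth, a scale on which genes can be compared. Depth, estimated from the step that 1 fragment makes in low values, was between 24100000 (Ovol2) and 34300000 (Zeb1) fragments. Each interval in the text is an exact 95% counting interval from fragments estimated with that depth and the longest GENCODE transcript. It covers counting error only and compares libraries, not conditions. The 3 factors peaked where they were delivered, ZEB1 at 17.3 against 0.260 FPKM with empty vector, SNAI1 at 99.7 against 0.152 and OVOL2 at 78.3 against 6.32. All 8 basal epithelial markers were at 1 FPKM or more in every library. Their sum was 9252 FPKM with empty vector, 2528 with Zeb1, 7577 with Snail and 4959 with Ovol2. Most of each sum was KRT17, at 5736, 1571, 4972 and 4624 FPKM in that order. KRT5 was at 2929, 771, 2022 and 215 FPKM. KRT5, KRT14, ITGB4, LAMA3 and EGFR were lowest with Ovol2, and KRT17, TP63 and CDH3 with Zeb1. The 5 general epithelial markers summed to 274 FPKM with empty vector, 131 with Zeb1, 288 with Snail and 319 with Ovol2. Single genes made the sums that lay above the empty vector. With Ovol2, CLDN4 was at 113 against 8.31 FPKM, while CDH1, EPCAM, KRT8 and KRT18 were all lower. With Snail, KRT8 was at 147 against 102 FPKM, while CDH1, EPCAM (0.683 against 6.61), KRT18 and CLDN4 (2.93 against 8.31) were lower. The epithelial cadherin CDH1 was at 60.4 FPKM with empty vector, 9.99 with Zeb1, 46.0 with Snail and 30.8 with Ovol2. Of 8 immune markers, 2 or 3 reached 1 FPKM in a library, and their sum ran from 4.33 to 22.2 FPKM. PTPRC, the pan-leukocyte marker, stayed at 0.02 FPKM or less and CD3E was listed at 0 in every library, while CD14 was at 17.0 FPKM with Zeb1 against 1.46 with empty vector. CD68 was at 1.76 FPKM with empty vector, 4.86 with Zeb1, 2.24 with Snail and 5.09 with Ovol2. The 6 fibroblast and mesenchyme markers, which cells in EMT also express, summed to 14.7 FPKM with empty vector, 631 with Zeb1, 134 with Snail and 7.65 with Ovol2. Most of each sum was DCN (604 FPKM with Zeb1), and 1 to 3 of the 6 reached 1 FPKM. With Zeb1 against empty vector, COL1A1 was at 25.0 against 3.49 FPKM, COL1A2 at 1.40 against 0.00635 and PDGFRB at 0.358 against 0.0240. PDGFRA and THY1 stayed at 0.0831 FPKM or less in every library. These sums moved with several values below, and their part in them was not tested.

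**Figure D1:**
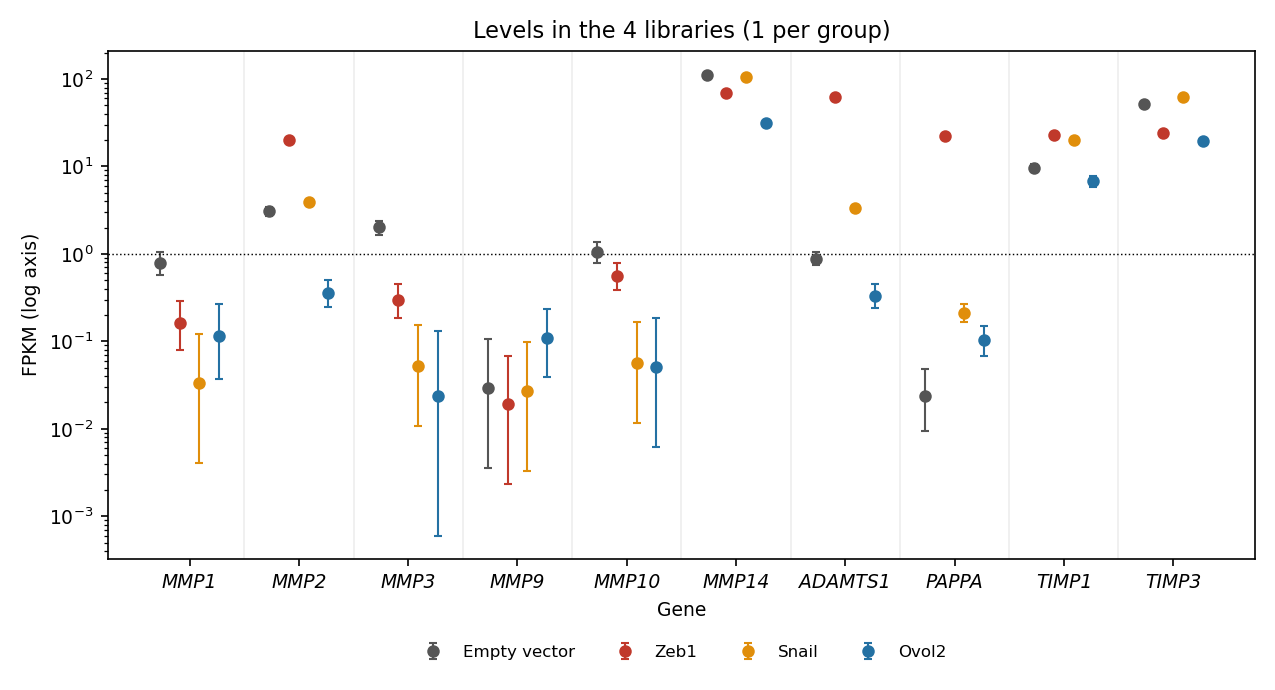
FPKM (log axis) of the 8 proteases and 2 inhibitors in the 4 libraries, 1 point per library with its 95% counting interval; the dotted line marks 1 FPKM. MMP14, TIMP1 and TIMP3 were above 5 FPKM in every library, ADAMTS1 and PAPPA were above 20 FPKM in the Zeb1 library alone, and MMP9 was below 0.2 FPKM throughout.

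MMP14 (MT1-MMP), a membrane-anchored collagenase that also activates the MMP2 precursor, was the most abundant of the 8 proteases in each library. It stood at 113 FPKM with empty vector, 106 with Snail, 69.1 with Zeb1 and 31.1 with Ovol2. The empty vector and Snail libraries lay close together (ratio 0.937, interval 0.914 to 0.961), and the Ovol2 library was 3.63-fold below the empty vector (3.48 to 3.78). Of the summed FPKM of the 8 proteases, MMP14 made up 93.5% with empty vector, 93.3% with Snail and 96.6% with Ovol2, but 39.7% with Zeb1.

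The gelatinase MMP2, which cuts denatured collagen and basement membrane collagen, was at 3.06 FPKM with empty vector, 19.9 with Zeb1, 3.89 with Snail and 0.359 with Ovol2. MMP2 was thus 6.49-fold higher with Zeb1 (5.78 to 7.29) and 8.53-fold lower with Ovol2 (5.93 to 12.7), and its Zeb1 and Ovol2 libraries were 55.3-fold apart. With Snail the ratio to the empty vector was 1.27 (1.10 to 1.47). The other gelatinase, MMP9, was at 0.0294 FPKM with empty vector, 0.0190 with Zeb1, 0.0271 with Snail and 0.108 with Ovol2, or about 2, 2, 2 and 6 fragments. The counting intervals of the 4 levels overlapped, and each ratio to the empty vector had an interval that held 1, so no difference from it was detectable at this depth.

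The collagenase MMP1 and the stromelysins MMP3 and MMP10, which cut matrix proteins and activate other MMP precursors, were low and were highest in the empty vector library. MMP3 was at 2.01 FPKM there, 0.299 with Zeb1, 0.0519 with Snail and 0.0237 with Ovol2, which are about 118, 21, 3 and 1 fragments. The Ovol2 ratio was 0.0118 (0.000296 to 0.0671) and the Snail ratio 0.0259 (0.00526 to 0.0775). MMP10 followed at 1.05, 0.558, 0.0566 and 0.0509 FPKM in the same order, about 54, 34, 3 and 2 fragments. MMP1 was at 0.779, 0.160, 0.0332 and 0.114 FPKM, about 45, 11, 2 and 5 fragments. For MMP1 the Snail ratio was 0.0426 (0.00501 to 0.163) and for MMP10 0.0541 (0.0108 to 0.167). In all 3 genes each factor library lay below the empty vector, with ratio intervals that excluded 1. Together the 3 genes summed to 3.83 FPKM with empty vector, 1.02 with Zeb1, 0.142 with Snail and 0.189 with Ovol2. The Snail and Ovol2 libraries did not differ beyond counting error in any of the 3, while Zeb1 lay above Snail in each (MMP10 ratio 9.87, 3.10 to 50.2). The WTAPP1 gene overlaps MMP1 and MMP3 and was at 0.0709 FPKM or less in every library.

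MMP1, MMP3 and MMP10 lie in a block of 9 MMP genes on chromosome 11 (order from RefSeq). Along it the levels were uneven. The collagenase MMP13 was at 5.53 FPKM with empty vector, 2.73 with Zeb1, 2.08 with Snail and 4.11 with Ovol2. The elastase MMP12 was at 0.320, 0.202 and 0.0637 FPKM and listed at 0, in the same order. The matrilysin MMP7 differed from these neighbours, with 6.17 FPKM with Zeb1 against 1.76 with empty vector, 0.665 with Snail and 0.666 with Ovol2. MMP8, MMP20 and MMP27 did not reach 0.05 FPKM in any library.

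**Figure D2:**
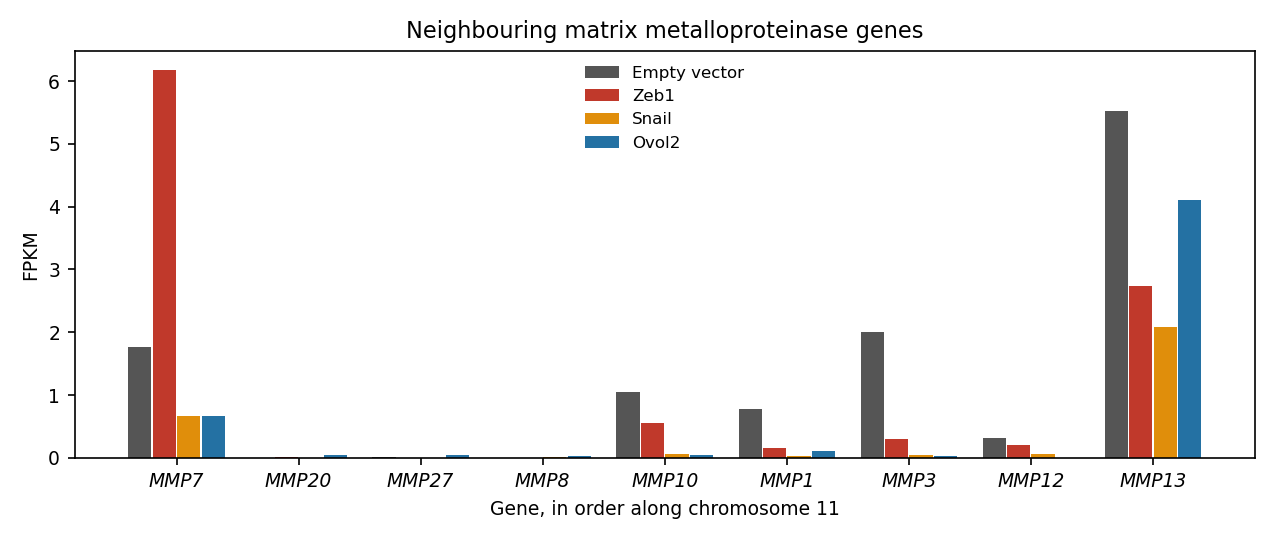
FPKM (linear axis) of the 9 neighbouring MMP genes in the 4 libraries, in their order along chromosome 11. MMP10, MMP1 and MMP3 were highest in the empty vector library, as were MMP12 and MMP13, while MMP7 was highest in the Zeb1 library.

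ADAMTS1 and PAPPA were below 1 FPKM in the empty vector library and above 20 FPKM in the Zeb1 library. ADAMTS1 was at 0.885 FPKM with empty vector, 61.6 with Zeb1, 3.32 with Snail and 0.332 with Ovol2. That is 69.6-fold higher with Zeb1 (58.7 to 83.2), 3.75-fold higher with Snail (3.10 to 4.57) and 2.67-fold lower with Ovol2 (1.87 to 3.87). For PAPPA the levels were 0.0235 FPKM with empty vector, 22.6 with Zeb1, 0.210 with Snail and 0.103 with Ovol2. The Zeb1 library held about 8497 PAPPA fragments against 7 in the empty vector library, a 962-fold difference (467 to 2394), and it was 108-fold above the Snail library (85.5 to 137). Snail and Ovol2 also lay above the empty vector for PAPPA (8.94-fold, 4.13 to 23.0, and 4.40-fold, 1.87 to 12.0), but both stayed below 1 FPKM. In the Zeb1 library ADAMTS1 made up 35.4% and PAPPA 13.0% of the summed protease FPKM, against 0.734% and 0.0195% in the empty vector library.

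The inhibitors TIMP1 and TIMP3 did not move alike. TIMP1, a soluble inhibitor of most secreted MMPs, was at 9.63 FPKM with empty vector, 23.0 with Zeb1, 20.0 with Snail and 6.79 with Ovol2. Both EMT factor libraries were about level (ratio 1.15, 1.04 to 1.27) and lay above the empty vector (2.39-fold, 2.09 to 2.73, and 2.08-fold, 1.81 to 2.38). TIMP3, which binds to the matrix and also inhibits ADAM and ADAMTS enzymes, was at 52.2 FPKM with empty vector, 24.4 with Zeb1, 62.7 with Snail and 19.8 with Ovol2. The empty vector held 5.42 times as much TIMP3 as TIMP1 FPKM, the Snail library 3.14 times, the Ovol2 library 2.92 times and the Zeb1 library 1.06 times. TIMP1 overlaps SYN1 and TIMP3 overlaps SYN3 in the annotation, the kit does not mark strand, and reads from overlapping genes could be counted to either. The same holds for PAPPA, which PAPPA-AS1 and PAPPA-AS2 overlap, and for MMP9, which SLC12A5-AS1 overlaps. These antisense genes were not among the gene symbols of the data under those names, so their levels could not be read. SYN1 and SYN3 were low, with SYN1 at 0.0918 FPKM or less and SYN3 at 0.954 or less. The highest SYN3 value was in the Ovol2 library.

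Summed over the 8 proteases, the level was 121 FPKM with empty vector, 174 with Zeb1, 113 with Snail and 32.2 with Ovol2. The 2 inhibitors summed to 61.8, 47.4, 82.7 and 26.6 FPKM. Protease FPKM per inhibitor FPKM was 1.95 with empty vector, 3.67 with Zeb1, 1.37 with Snail and 1.21 with Ovol2. This ratio is no MMP to TIMP balance, since the TIMPs need not act on each protease in the sum. ADAMTS1 and PAPPA made up 35.4% and 13.0% of the protease sum with Zeb1, against 0.734% and 0.0195% with empty vector. The PAPPA inhibitors described below, the stanniocalcins, are not in the inhibitor sum. With TIMP2, an inhibitor outside the 10 genes, added to the inhibitor sum, that sum was 74.2 FPKM with empty vector, 87.4 with Zeb1, 108 with Snail and 31.1 with Ovol2. The inhibitor sum was then higher with Zeb1 than with empty vector, where without TIMP2 it was lower, and the ratio was 1.63, 1.99, 1.04 and 1.03 in that order. These are sums of transcript levels, and enzyme amount or activity was not measured.

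**Figure D3:**
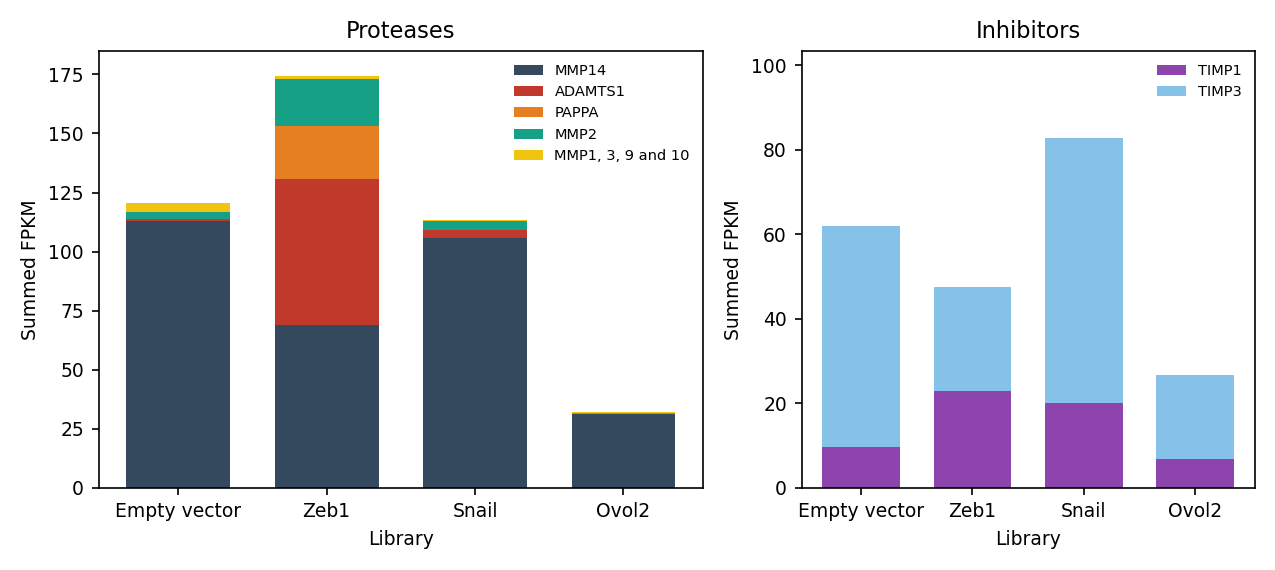
Summed FPKM (linear axes) of the 8 proteases, left, and of TIMP1 and TIMP3, right, in the 4 libraries, stacked by gene. The protease sum was 174 FPKM in the Zeb1 library, where ADAMTS1, PAPPA and MMP2 were added to MMP14, and 32.2 in the Ovol2 library.

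Zeb1 against the empty vector asks which of these genes an EMT factor raises or lowers. Each difference was read as the log2 ratio of FPKM + 1. A gene was kept if at least 1 of the 2 libraries compared reached 1 FPKM, and was called at 2-fold or more. With Zeb1, 4 of 8 kept genes were higher, against 4.52% of all 11922 genes tested: ADAMTS1 (log2 ratio 5.05), PAPPA (4.53), MMP2 (2.36) and TIMP1 (1.17). ADAMTS1 ranked 7 and PAPPA 10 from the highest, and MMP2 ranked 79. ADAMTS1 and PAPPA passed the filter only through the Zeb1 library and so could not have been called lower. MMP3 and MMP10 passed it only through the empty vector library and so could not have been called higher. MMP3 (-1.21) and TIMP3 (-1.06) were lower, 2 of 8, against 8.49% of all genes. MMP14 (-0.70) and MMP10 (-0.39) lay within 2-fold, and MMP1 and MMP9 were below the filter. The median over the 8 kept genes was 0.39, beside -0.09 over all genes tested. In such bulk samples, fewer expressing cells and less RNA per cell cannot be told apart.

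The median log2 ratio of genes at 5 FPKM or more in both libraries was -0.12 with Zeb1. After it was subtracted (centring), ADAMTS1 stood at 5.18, PAPPA at 4.65, MMP2 at 2.48, TIMP1 at 1.30 and MMP3 at -1.09. TIMP3 then came to -0.94, within 2-fold. Of all genes called, 34.8% were higher as deposited, 48.1% after centring and 62.7% when FPKM was rescaled without the abundant RNase RNAs RMRP and RPPH1.

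Snail against the empty vector sets the other EMT factor beside the control. Of 7 kept genes, 2 were past 2-fold, against 2.51% of all 11644 genes tested in either direction. ADAMTS1 was higher (1.20, rank 68 from the highest) and MMP3 lower (-1.51, rank 46 from the lowest). TIMP1 (0.98) and MMP10 (-0.95) lay just short of 2-fold on this scale, on which the pseudocount of 1 FPKM shrinks ratios of low values. MMP2 (0.27), TIMP3 (0.26) and MMP14 (-0.09) lay close to 0. MMP1, MMP9 and PAPPA were below the filter, and ADAMTS1 passed it only through the Snail library. MMP3 and MMP10 passed it only through the empty vector library and so could not have been called higher. The median over the 7 was 0.26, beside 0.12 for all genes. The median subtracted in centring was 0.14, after which ADAMTS1 stood at 1.06, MMP3 at -1.65 and MMP10 at -1.09, and 23.7% of all called genes were higher in place of 40.1%.

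Ovol2 against the empty vector asks how these genes stand when an epithelial line receives a factor that opposes EMT. Of 6 kept genes, 4 were lower, MMP14 (-1.83), MMP2 (-1.58), MMP3 (-1.55) and TIMP3 (-1.35), against 25.1% of all 11812 genes, and 0 were higher, against 6.82%. From the lowest, MMP14 ranked 521, MMP2 895, MMP3 950 and TIMP3 1439. MMP10 (-0.96) lay just within 2-fold. TIMP1 was at -0.45, and its sign turned under upper quartile scaling (0.15) and after correction for transcript length (0.04). The median over the 6 was -1.45, beside -0.51 for all genes. MMP1, MMP9, ADAMTS1 and PAPPA were below the filter. MMP2, MMP3 and MMP10 passed it only through the empty vector library and so could not have been called higher.

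The Ovol2 library as a whole leaned to lower values. RMRP and RPPH1 held 40.6% of all FPKM in it and 24.6% in the empty vector library. After correction for length MMP14 stood at -1.35, MMP2 at -1.16, MMP3 at -1.10 and TIMP3 at -0.44, the last within 2-fold, as it was under upper quartile scaling (-0.71). With centring, in which a median of -0.17 was subtracted, the 4 genes stood at -1.66, -1.41, -1.38 and -1.18. The share of called genes that were higher was 21.4% as deposited, 13.1% when rescaled without RMRP and RPPH1, 61.2% with upper quartile scaling and 58.2% with the length correction.

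**Figure D4:**
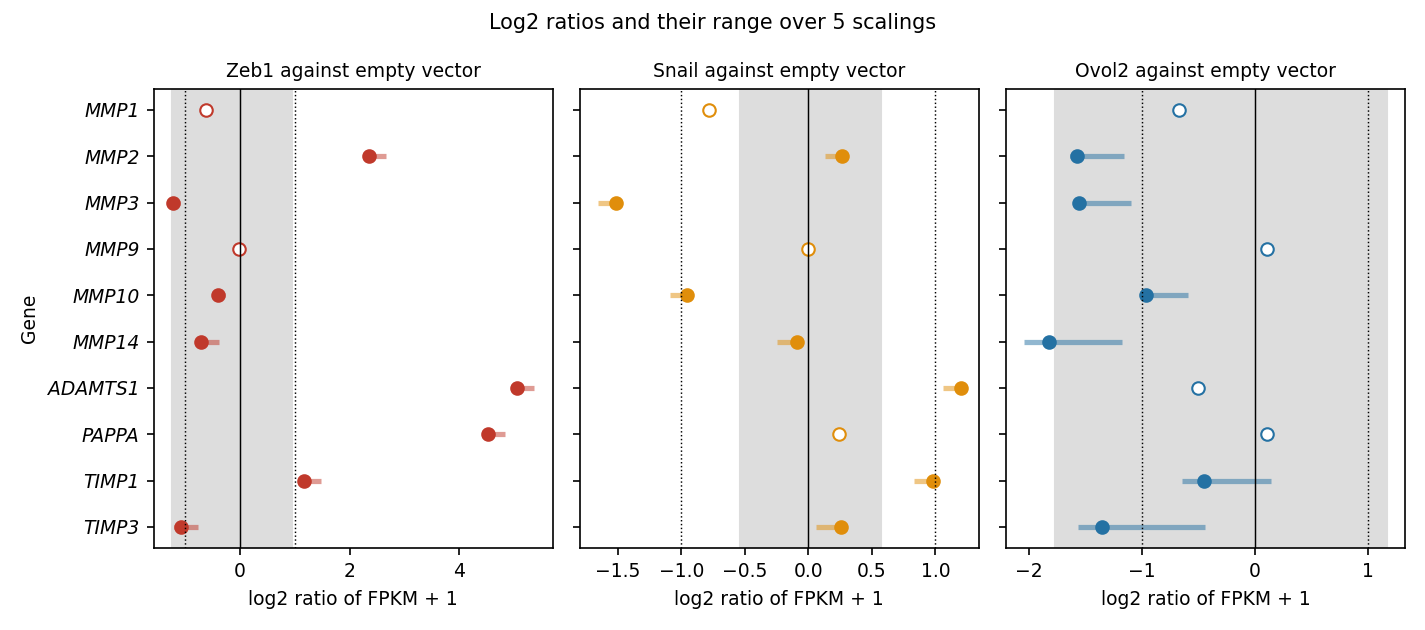
Log2 ratios of FPKM + 1 against the empty vector, with a separate horizontal scale in each panel. Points are the deposited scale (open where a gene was below 1 FPKM in both libraries), bars span it and 4 other scalings, grey bands span the 5th to 95th percentile of all genes tested, and dotted lines mark 2-fold. ADAMTS1, PAPPA, MMP2 and TIMP1 lay outside the band with Zeb1, and MMP3 and TIMP3 inside it. With Ovol2, MMP14 lay outside the band, and MMP2, MMP3 and TIMP3 inside it. TIMP3 crossed the 2-fold line between scalings with Zeb1 and Ovol2.

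The 3 comparisons share the empty vector library, so their values are set side by side without a measure of agreement. MMP2 was at 2.36 with Zeb1, 0.27 with Snail and -1.58 with Ovol2. MMP3 was at -1.21, -1.51 and -1.55. TIMP1 was at 1.17, 0.98 and -0.45, and TIMP3 at -1.06, 0.26 and -1.35.

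Related genes were counted in lists by family and role. Their counts stand beside the shares over all genes, 4.52% higher and 8.49% lower with Zeb1, 2.51% in either direction with Snail, and 6.82% higher and 25.1% lower with Ovol2. A gene kept only through 1 of the 2 libraries could be called in 1 direction alone, and counts and medians over kept genes include such genes. With Zeb1 these were MMP15, MMP19, ADAMTS2, ADAMTS5, ADAM12, ADAM19, RECK, LCN2, PCSK6, STC1, IGFBP4, IGFBP2, VCAN, COL1A2 and COL3A1. With Snail they were MMP19, MMP7, ADAM19, RECK, PCSK6, IGFBP2 and COL3A1. With Ovol2 they were MMP7, ADAMTS6, ADAMTS7, ADAMTS15, TLL1, LCN2 and COL1A1. Among 17 other MMPs, 6 were kept with Zeb1, of which MMP19 (1.85) and MMP7 (1.38) were higher and MMP28 (-1.79), an epithelial MMP, was lower. MMP28 was at 33.8 FPKM with empty vector, 9.06 with Zeb1, 19.9 with Snail and 9.03 with Ovol2. It was the 1 lower gene of 4 kept with Ovol2 (-1.80), and MMP13 (-1.08) the 1 lower of 5 kept with Snail. Neither comparison had a higher one. The list medians were 0.17 with Zeb1, -0.73 with Snail and -0.54 with Ovol2.

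Of 18 other ADAMTS genes, 5 were kept with Zeb1 and 4 were higher. ADAMTS5, an aggrecan-cutting relative of ADAMTS1, was at 5.51 against 0.00533 FPKM (2.70), and ADAMTS2, which trims procollagen, at 3.84 against 0.0204 (2.24). ADAMTS6 (1.80) and ADAMTS7 (1.44) were the others. With Snail, ADAMTS6 (1.51) was the 1 higher gene of 3 kept. With Ovol2 all 3 kept genes, ADAMTS7 (-1.52), ADAMTS15 (-1.33) and ADAMTS6 (-1.04), were lower, but each passed the filter only through the empty vector library and none stayed past 2-fold after the length correction (median -0.44). The medians were 1.80, 0.53 and -1.33 with Zeb1, Snail and Ovol2.

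Of 5 other inhibitors, TIMP2, which also helps MMP14 to activate the MMP2 precursor, was at 12.4 FPKM with empty vector, 39.9 with Zeb1, 25.8 with Snail and 4.49 with Ovol2. It was past 2-fold in each comparison (1.62, 1.00 and -1.28). With Snail it came to 0.86 after centring and was within 2-fold under each of the 4 other scalings, and with Ovol2 it was within 2-fold under upper quartile scaling (-0.72) and the length correction (-0.47). RECK, a membrane-anchored MMP inhibitor, was at 4.37 FPKM with Zeb1 and 2.41 with Snail against 0.949 (1.46 and 0.81). TIMP4, A2M and TFPI2 did not reach 0.06 FPKM in any library. The list had 2 of 2 kept genes higher with Zeb1 (median 1.54), 1 of 2 higher with Snail (0.91) and its 1 kept gene lower with Ovol2.

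The genes around PAPPA were measured as a list of 10, of which 5 were kept with Zeb1. Its substrate IGFBP4 was at 29.3 FPKM in the Zeb1 library against 0.592 (4.25), and its inhibitors STC2 and STC1, the stanniocalcins, were at 19.8 against 1.09 (3.32) and 1.81 against 0.0974 (1.35). IGFBP2 was lower with Zeb1 (0.551 against 4.22 FPKM, -1.75) and with Snail (-1.61), the 1 gene of 3 kept past 2-fold there. With Ovol2 the receptor IGF1R (1.85 against 12.0 FPKM, -2.19) was the 1 lower gene of 3 kept. The ligands IGF1 and IGF2 did not reach 0.04 FPKM in any library. The list medians were 1.35 with Zeb1, -0.12 with Snail and -0.38 with Ovol2, the last 0.14 under upper quartile scaling.

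Matrix proteins that these enzymes cut formed a list of 15. With Zeb1, 8 of 11 kept genes were higher and 3 lower (median 1.30). Versican (VCAN), a substrate of ADAMTS1, was at 21.0 against 0.235 FPKM (log2 ratio 4.16). The collagens COL3A1 (5.82) and COL1A1 (2.54) and fibronectin, FN1 (5.41), were higher too, while LAMA3 (-1.49) and LAMB3 (-1.66), chains of a basement membrane laminin, were among the lower genes. With Snail 3 of 9 were higher, FN1 (2.62), COL3A1 (1.62) and COL4A1 (1.08), and 0 lower (median 0.48), and COL4A1 came to 0.94 after centring. With Ovol2 all 8 kept genes were lower (median -3.48, beside -0.51 over all genes) under all 5 scalings, led by LAMA3 (-4.46) and COL4A2 (-3.81).

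**Figure D5:**
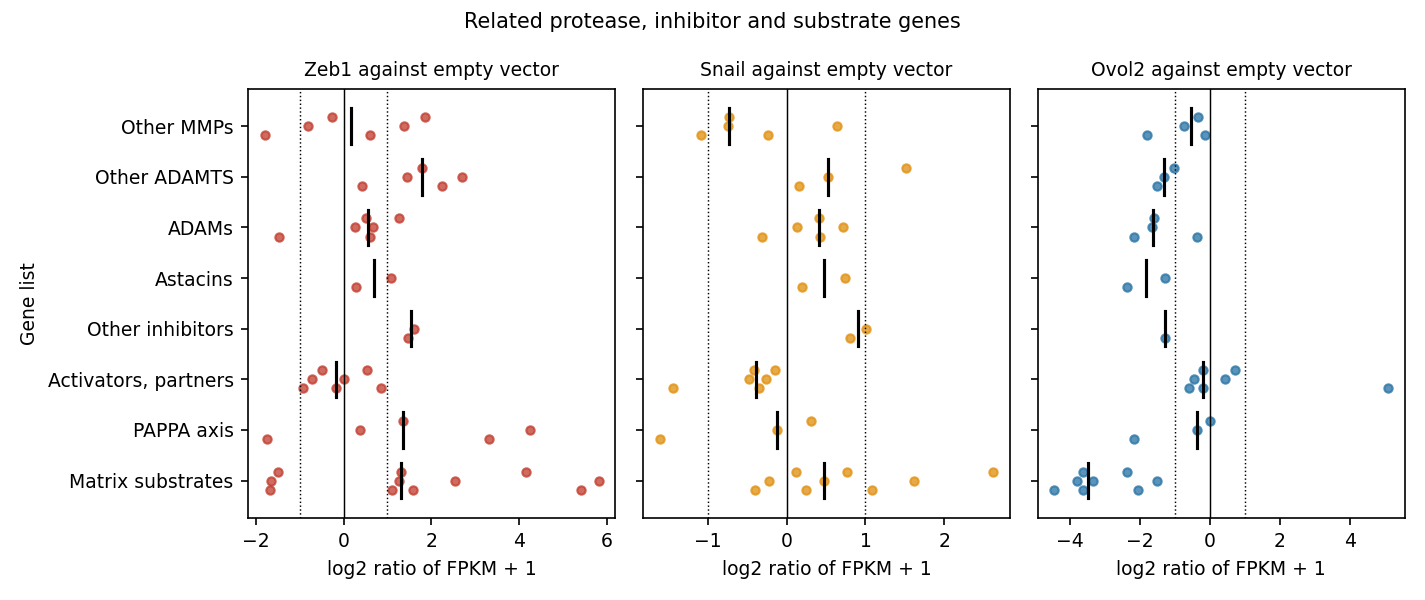
Log2 ratios of FPKM + 1 for 8 lists of related genes, 1 point per kept gene, with the list median as a black bar, 2-fold as dotted lines and a separate horizontal scale in each panel. Other ADAMTS genes, other inhibitors and matrix substrates had medians of 1.80, 1.54 and 1.30 with Zeb1, and of -1.33, -1.28 and -3.48 with Ovol2.

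For each gene past 2-fold in at least 1 comparison, the genes with the most similar pattern were taken by the Euclidean distance between the 3 log2 ratios, among about 8276 others at 5 FPKM or more in some library. Nearest to PAPPA were VCAN (distance 0.60), the chemokine CXCL8 (0.63) and IGFBP4 (0.65). ADAMTS1 had the proteoglycan LUM (0.57), COL3A1 (1.00) and the protease inhibitor SERPINE2 (1.04), and MMP2 had the semaphorin SEMA3C (0.40), SMIM3 (0.44) and IRS2 (0.49). MMP3 was nearest to ALDH1A3 (0.21), the collagen receptor subunit ITGA2 (0.58) and RIPK4 (0.60). MMP14 lay very near SLC29A1 (0.07), NDRG1 (0.11) and ZNF462 (0.12), TIMP1 near MDK (0.15), NEK7 (0.25) and MFAP3L (0.26), and TIMP3 near TMEM97 (0.09), the desmosome protein DSP (0.11) and DFNA5 (0.11). These distances rest on 3 ratios that share a control library and only describe these 4 libraries. The pseudocount of 1 FPKM shrinks ratios of low values, so near genes can differ widely in FPKM ratio. With Ovol2, MMP3 went from 2.01 to 0.0237 FPKM, but ALDH1A3 from 12.7 to 4.39. With Zeb1, PAPPA went from 0.0235 to 22.6 FPKM, and CXCL8 from 3.29 to 66.8.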

How the data were processed

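RNA sequencing of 4 MCF10A libraries, 1 per group, was used. The authors deposited 3 tables of 25360 rows, each with the empty vector beside 1 factor library. The unit of the deposited values was taken as FPKM, since Cufflinks and Cuffdiff stand with TopHat and the hg19 build in the submitters' processing notes and the values behave as FPKM. The sources used here give no versions, annotation or strand setting. Per the file headers, the deposited tables also hold a signed fold and an adjusted p-value from 1 value per side, with 8 degrees of freedom, which do not measure spread between cultures and served only as an alternative.

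Values of 43 rows with a repeated symbol were added to that symbol's first row. Log2 ratios of FPKM + 1 were computed with Python 3.11.15 (pandas 2.3.3, scipy 1.17.1) for genes that reached 1 FPKM in at least 1 of the 2 libraries, and 2-fold or more was called. Transcript lengths came from GENCODE release 29. Of each related list, up to 4 genes with the largest ratios were named per comparison, with 3 nearest genes per member. Other list genes, and all cell type markers named singly, were named after their values were seen. The members and lists were chosen with earlier results of these data known. Alternatives changed the pseudocount, filter, scaling, length correction, fold rule and call. The values of 1 gene counted in a related list are not reported here. The 2-fold call was tested on simulated data, in which the changed genes were at 5 FPKM or more. The other steps were not tested on simulated data.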

Additional observations from a re-analysis of the deposited data

How the results depend on the processing

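No paired analysis was possible because each group held 1 library, and for the same reason no library could be left out. With Zeb1 the number of higher genes stayed at 4 or 3 under every alternative run. The number of lower genes, 2 as reported, was 1 with a filter of 5 FPKM, with centring, with upper quartile scaling and with rescaling without RMRP and RPPH1, 0 with a 3-fold rule, 3 with a 1.5-fold rule and 4 with the authors' adjusted p-value below 0.05. With Snail the 1 higher gene became 2 with a pseudocount of 0.1 FPKM or a 1.5-fold rule, 0 with a filter of 5 FPKM or a 3-fold rule, and 4 with the authors' p-value. The 1 lower gene became 2 with a pseudocount of 0.1 FPKM, centring, length correction, a 1.5-fold rule or the authors' p-value, and 0 with a filter of 5 FPKM or a 3-fold rule. With Ovol2 no gene was higher under any alternative run, and the 4 lower genes became 2 with a filter of 5 FPKM, 1 with a 3-fold rule, 3 with upper quartile scaling or length correction, 5 with a pseudocount of 0.1 FPKM or a 1.5-fold rule and 6 with the authors' p-value. TIMP1 with Ovol2, within 2-fold throughout, changed sign under upper quartile scaling (0.15) and length correction (0.04). A pseudocount of 0.1 FPKM with no filter, chosen after seeing the data, gave 3 lower genes with Zeb1, 3 higher and 3 lower with Snail and 7 lower with Ovol2. Over all genes that run had 8.33% lower with Zeb1, 2.22% higher and 3.28% lower with Snail, and 22.7% lower with Ovol2. The scalings of the related lists and the sums with TIMP2 were also added after seeing the data. Shares of all genes tested moved with the setting too. With Zeb1, 1.76% were higher and 2.45% lower with a 3-fold rule, and 12.3% and 21.3% with a 1.5-fold rule. In that order they were 0.309%, 0.318%, 4.59% and 4.36% with Snail, and 2.80%, 7.52%, 12.7% and 46.1% with Ovol2. The share lower with Ovol2 was 36.4% with a pseudocount of 0.1 FPKM, 27.4% with a filter of 5 FPKM, 10.4% with upper quartile scaling and 9.31% with length correction. With Zeb1, a filter of 5 FPKM, centring, upper quartile scaling and rescaling without RMRP and RPPH1 gave 10.5%, 6.45%, 7.34% and 4.98% lower. The same settings gave 5.11%, 5.97%, 5.33% and 8.36% higher. With Snail, 1.86% were higher and 3.10% lower with a pseudocount of 0.1 FPKM, and 1.10% and 1.43% with a filter of 5 FPKM. The share lower with Snail was 2.16% with centring and 1.67% with length correction. Among the values of single genes under the alternatives, 159 kept their side of 2-fold, 13 passed it newly, 5 no longer passed it and none of those past it changed sign. The 5 were all TIMP3, with Zeb1 and Ovol2. This tally includes the run that only dropped the filter and the run with a filter of 5 FPKM. Those runs leave each ratio as it was, so their values could not change side. Also in the tally is the pseudocount of 0.1 FPKM with no filter, chosen after seeing the data. For kept genes it repeats the values of the planned pseudocount of 0.1 FPKM. MMP10 and TIMP1 with Snail and MMP10 with Ovol2 were thus counted again among those that passed newly. By the authors' p-value 77.9%, 81.0% and 86.3% of all rows passed with Zeb1, Snail and Ovol2. Of the genes tested, 41.0% were higher and 51.9% lower by it with Zeb1, 60.3% and 26.8% with Snail, and 25.3% and 69.7% with Ovol2. Counts of members by that p-value are to be read beside these large shares. Depth limits MMP9, MMP1, MMP3 and MMP10, which held few fragments in several libraries.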

Other observations

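The ADAM proteases, membrane enzymes that shed growth factors and receptors, were lower with Ovol2 in 3 of 4 kept genes, where 25.1% of all genes were lower. That share was 9.31% after correction for transcript length, which left 2 of the 4 lower, and 10.4% with upper quartile scaling, which left 3 of 5. ADAM9 was at 15.6 FPKM against 73.5 in the empty vector library (log2 ratio -2.17), ADAM10 at 12.0 against 40.3 (-1.67) and ADAM17 at 5.93 against 20.1 (-1.60), while ADAM15 lay within 2-fold (-0.36). With Zeb1, ADAM19 (1.27) was higher and ADAM15 (29.3 FPKM, -1.48) lower among 6 kept genes, and with Snail none of 5 passed 2-fold, with ADAM9 at 0.72. ADAM19 passed the filter with Zeb1 and with Snail only through the factor library. The list medians were 0.56 with Zeb1, 0.42 with Snail and -1.63 with Ovol2. The astacin protease BMP1, which trims procollagens, was at 30.0 FPKM with empty vector, 65.1 with Zeb1, 34.6 with Snail and 11.7 with Ovol2. Its relative TLL1 was at 8.83 FPKM with empty vector and 0.892 with Ovol2, and so passed the filter there only through the empty vector library. Of the 2 kept astacins, 1 was higher with Zeb1, none passed 2-fold with Snail and both were lower with Ovol2 (medians 0.69, 0.47 and -1.83). BMP1 with Ovol2 lay within 2-fold under upper quartile scaling (-0.66) and after the length correction (-0.62).

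Among activators and partners of the MMPs, LCN2, a lipocalin that binds MMP9, was at 50.1 FPKM with Ovol2 against 0.488 with empty vector, 1.71 with Zeb1 and 0.456 with Snail. It was the 1 gene of 7 kept past 2-fold with Ovol2 (5.10), and it passed the filter only through the Ovol2 library. The urokinase gene PLAU was the 1 gene of 6 kept past 2-fold with Snail, at 11.9 against 33.8 FPKM (-1.43), and none of 7 passed it with Zeb1. FURIN, which cleaves the MMP14 precursor, stayed between 15.3 and 17.5 FPKM in all 4 libraries. The list medians were -0.16, -0.38 and -0.19 with Zeb1, Snail and Ovol2. The Ovol2 median was 0.45 with upper quartile scaling, with 3 genes higher, and 0.22 after the length correction, with 2 higher. Over all genes tested, 16.5% and 13.0% were higher in those settings. The Zeb1 median was 0.14 when rescaled without RMRP and RPPH1, with 1 gene higher, where 8.36% of all genes tested were higher.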
